A study of Homo sapiens with 6 samples.

Results

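The 10 genes described here are markers that the EWSR1-FLI1 fusion is known to activate in Ewing sarcoma: NKX2-2, STEAP1, PRKCB, GLI1, EZH2, LIPI, NPY1R, BCL11B, CAV1 and SOX2. They were taken by symbol from a list of known targets, with earlier results of these data known. Each was represented by the probe set that the platform annotation assigns to its symbol. All 10 of 10 were found among 18417 genes, which came from the 19460 of 33297 probe sets that had 1 symbol. Each member had 1 probe set, so the rule of keeping the probe set with the highest mean had no choice to make. The data were 6 Affymetrix whole-transcript arrays, 1 for each of 2 Ewing sarcoma cell lines (A673 and SK-N-MC) with each of 3 siRNAs. In each line cells received siDKK2 (number 1 in both lines), siITM2A or a non-silencing control siRNA. The sample titles number the siITM2A 7 in A673 and 1 in SK-N-MC, while the design text names number 7 only. Whether the lines received different ITM2A siRNAs is therefore not certain. DKK2 is a secreted protein that tunes Wnt signalling, and ITM2A is a membrane protein. All arrays shared the same growth medium, RNA extraction and labelling. No agent against the fusion itself was used, and the time from transfection to harvest is not given in the sources used here. Nothing in the labels says that any condition was repeated in a separate culture, so p-values measure only the spread between these arrays.

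Ewing sarcoma is driven by a fusion of the RNA-binding protein EWSR1 with an ETS transcription factor, most often FLI1. The fusion binds GGAA motifs, opens chromatin at stretches of repeated GGAA that are often far from any gene, and turns on genes there, while it represses others. Its activated targets include transcription factors (NKX2-2, SOX2, GLI1, BCL11B), the chromatin enzyme EZH2, signalling and membrane proteins (PRKCB, STEAP1, NPY1R, CAV1) and the lipase LIPI. The question addressed was whether this programme holds when DKK2 or ITM2A is knocked down, and how far the lines themselves differ in it.

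The RefSeq windows around the members' transcription starts (GRCh38.p14, 250 bases before to 50 bases after each start) are shown for 4 members, 3 for their line differences and 1 as a window without the motif. CAV1 and NPY1R were the members with the largest excess in A673, STEAP1 was the member with the largest excess in SK-N-MC, and PRKCB holds no GGAA in its window, nor does BCL11B in its own. Capitals mark GGAA, or TTCC where the motif reads on the opposite strand. CAV1 lies at chr7:116524759-116525058 on the plus strand, STEAP1 at chr7:90154219-90154518 on the plus strand, NPY1R at chr4:163332547-163332846 on the minus strand and PRKCB at chr16:23835733-23836032 on the plus strand, each printed 5′ to 3′ in the direction of transcription.
CAV1: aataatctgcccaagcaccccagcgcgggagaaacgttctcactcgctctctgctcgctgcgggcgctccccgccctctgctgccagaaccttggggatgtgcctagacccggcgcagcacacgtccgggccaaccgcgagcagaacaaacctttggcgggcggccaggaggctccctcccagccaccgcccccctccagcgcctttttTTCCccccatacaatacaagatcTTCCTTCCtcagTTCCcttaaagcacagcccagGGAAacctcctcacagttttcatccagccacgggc
STEAP1: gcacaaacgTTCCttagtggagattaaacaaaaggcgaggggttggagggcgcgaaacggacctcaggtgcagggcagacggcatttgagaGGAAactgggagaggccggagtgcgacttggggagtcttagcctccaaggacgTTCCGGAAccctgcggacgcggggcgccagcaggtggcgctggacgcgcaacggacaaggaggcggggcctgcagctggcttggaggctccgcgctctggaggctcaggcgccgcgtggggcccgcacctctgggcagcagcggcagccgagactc
NPY1R: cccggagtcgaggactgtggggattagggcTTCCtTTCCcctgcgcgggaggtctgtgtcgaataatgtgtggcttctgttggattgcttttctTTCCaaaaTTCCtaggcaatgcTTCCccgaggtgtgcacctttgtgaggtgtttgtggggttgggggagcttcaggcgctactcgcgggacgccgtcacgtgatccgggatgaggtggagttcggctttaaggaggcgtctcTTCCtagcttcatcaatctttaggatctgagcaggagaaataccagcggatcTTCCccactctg
PRKCB: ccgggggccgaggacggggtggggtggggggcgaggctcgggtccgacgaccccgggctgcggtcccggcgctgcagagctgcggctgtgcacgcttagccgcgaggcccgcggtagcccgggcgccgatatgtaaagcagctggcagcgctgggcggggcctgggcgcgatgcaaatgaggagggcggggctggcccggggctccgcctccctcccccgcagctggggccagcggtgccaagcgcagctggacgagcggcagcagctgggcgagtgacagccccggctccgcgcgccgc

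The CAV1 window shown held 5 matches to GGAA, 4 of them as TTCC, and its TTCCTTCC is a GGAAGGAA on the opposite strand that overlaps 2 of those matches. At least as many GGAA matches were held by 28.6% of all RefSeq windows. CAV1 has 3 windows: the second overlaps the one shown and holds the same matches, and the third, at chr7:116526112-116526411, holds 0 GGAA and 0 GGAAGGAA. The NPY1R window held 7 matches, all as TTCC, and 8.29% of all windows held at least as many. STEAP1 had 4, including a TTCC directly followed by a GGAA, and 46.0% of all windows held at least as many. Windows were matched for 9 of the 10 members, 14 windows in all because some genes have several starts. GGAA was found on either strand in 10 of these 14 windows (71.4%), against 95.5% of all 35114 windows. The tandem GGAAGGAA was found in 2 of the 14 windows, the overlapping pair of CAV1, against 3.67% of all windows, and the longer ETS motif CCGGAAGT in 0, against 4.14%. The motifs were searched on both strands, and a match describes these letters only.

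The labels were checked against the targeted genes and marker genes. DKK2 with siDKK2 stood at 53.0% of its control level in A673, against 35.1% in SK-N-MC, and ITM2A with siITM2A was at 8.86% in A673, against 9.55% in SK-N-MC. In A673 the log2 value of DKK2 was 9.13 with siITM2A and 8.64 with control siRNA. That of ITM2A was 9.21 with siDKK2 and 8.52 with control siRNA. The same values in SK-N-MC were 7.94 and 8.01 for DKK2, and 9.66 and 9.48 for ITM2A. Of 5 Ewing sarcoma markers 4 were analysed, NKX2-2 among them, and all 4 lay above the array median on every array, while 0 endothelial, epithelial, skeletal muscle, melanocyte and neuroblastoma markers did. Of the fibroblast markers 2 of 5 and of the leukocyte markers 1 of 4 analysed lay above it. Over all genes, correlations were 0.986 to 0.991 within a line and 0.959 to 0.965 between lines. A list of 11 interferon-induced genes averaged, on the log2 scale, 3.82 with siDKK2, 6.28 with siITM2A and 7.25 with control siRNA in A673, and 3.58, 4.30 and 4.66 with the same siRNAs in SK-N-MC. The A673 control array was thus the highest of the 6 for these genes, and their part in the differences of the marker genes from control was not tested.

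Differences between the lines passed the test for most marker genes, and differences between the siRNAs for none. Of the 10 members 6 differed between A673 and SK-N-MC by limma at an adjusted p under 0.05, against 28.5% of all genes: CAV1, NPY1R and LIPI were higher in A673 and STEAP1, EZH2 and NKX2-2 were lower. By direction, 13.8% of all genes were called higher and 14.7% lower. Every member except GLI1 lay above the array medians of all genes on all arrays. Shares over all genes, here and below, include dimmer genes, and shares among genes of like brightness are not given here. With siDKK2 0 of 10 members passed against control (0.0109% of all genes), with siITM2A 0 of 10 (0.0109%), between siDKK2 and siITM2A 0 of 10 (0.0163%), and for the mean of both knock-downs against control 0 of 10 (0.00543%). At an unadjusted p under 0.05 these counts were 2, 2, 2 and 3 of 10 members, against 8.68%, 6.91%, 8.32% and 7.66% of all genes. Values below are log2 RMA values, on which 1 unit is a 2-fold difference. In these bulk samples, fewer cells of a type and less RNA per cell cannot be told apart.

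**Figure D1:**
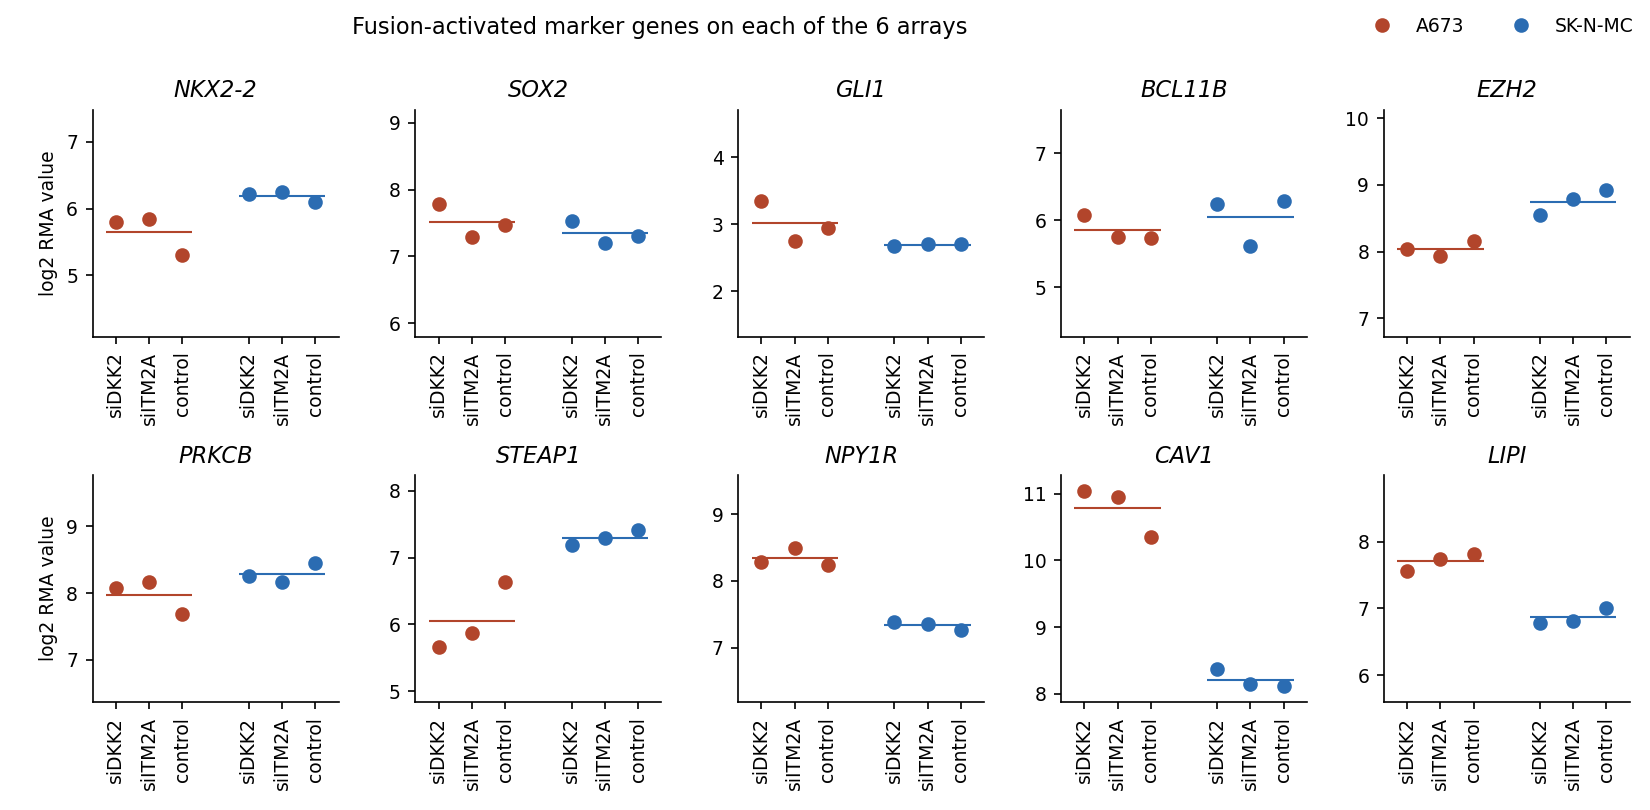
Log2 RMA value of each marker gene on each array (vertical axis, the same span in all panels), by siRNA and cell line (A673 left, SK-N-MC right); each point is 1 array and the line is the mean of the 3 arrays of a cell line. CAV1 sits between 10.34 and 11.04 in A673, above all SK-N-MC arrays at 8.11 to 8.37, while SOX2 and BCL11B overlap between the lines.

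Among the transcription factors, NKX2-2, a homeobox repressor that works through TLE and histone deacetylase corepressors and is required for transformation by the fusion, stood at 5.80 with siDKK2, 5.84 with siITM2A and 5.31 with control siRNA in A673. The SK-N-MC values were 6.22, 6.25 and 6.10 in the same order. All 3 A673 arrays lay below all 3 SK-N-MC arrays, and in both lines both knock-down arrays lay above their control. The line difference was -0.54 ± 0.12 (SE; limma adjusted p = 0.00928, 1.45-fold lower in A673). Without the control array of either line it was -0.41 and missed the threshold (adjusted p = 0.0525). The knock-down differences were 0.31 with siDKK2 (95% interval -0.027 to 0.64, adjusted p = 0.602) and 0.34 with siITM2A (0.0067 to 0.68, adjusted p = 0.721). In A673 alone they were 0.49 and 0.53, against 0.12 and 0.15 in SK-N-MC. Leaving out the A673 control array gave 0.12 with siDKK2 and 0.15 with siITM2A, and leaving out the control array of SK-N-MC gave 0.49 and 0.53.

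SOX2, a factor of stem and neural progenitor cells, had 7.79 with siDKK2, 7.28 with siITM2A and 7.46 with control siRNA in A673, and 7.53, 7.20 and 7.30 in SK-N-MC. The lines overlapped (A673 minus SK-N-MC 0.17, 95% interval -0.072 to 0.41, adjusted p = 0.305). Within each line the siDKK2 array was the highest and the siITM2A array the lowest. The direct difference of siDKK2 from siITM2A was 0.42 ± 0.13 (A673 0.51, SK-N-MC 0.33; 95% interval 0.12 to 0.71; limma unadjusted p = 0.0114, adjusted p = 0.476). It did not pass over all genes. Its estimate does not use the control arrays.

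BCL11B, a zinc-finger factor of T cell development that acts with the NuRD complex, had 6.08 with siDKK2, 5.75 with siITM2A and 5.73 with control siRNA in A673. In SK-N-MC it had 6.25, 5.62 and 6.29. Its lowest array was siITM2A in SK-N-MC, 0.67 below that line's control, a within-line range that 3.79% of all genes matched. The lines overlapped, with a difference of -0.20 (95% interval -0.52 to 0.13, adjusted p = 0.383). Between siDKK2 and siITM2A it differed by 0.48 ± 0.17 (95% interval 0.078 to 0.87, adjusted p = 0.533) (A673 0.32, SK-N-MC 0.63). This value was 0.73 without the siITM2A array of A673 and 0.23 without that of SK-N-MC.

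GLI1, the zinc-finger activator at the end of hedgehog signalling and itself a target of the fusion, stood at 3.35 with siDKK2, 2.75 with siITM2A and 2.95 with control siRNA in A673, and at 2.68, 2.71 and 2.70 in SK-N-MC. All 6 values lay below the array medians of all genes, which ran from 3.96 to 4.05. The files give no measure of signal over background, and RMA compresses differences of dim probe sets. The SK-N-MC arrays differed by at most 0.029. Between the lines the difference was 0.32 ± 0.14 (adjusted p = 0.127), and the siDKK2 difference from control was 0.19 (95% interval -0.19 to 0.57).

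EZH2, the methyltransferase of the Polycomb complex PRC2 that places the repressive mark on histone H3, was 8.04 with siDKK2, 7.93 with siITM2A and 8.16 with control siRNA in A673. The SK-N-MC values, 8.55, 8.78 and 8.92, were all higher. EZH2 was 1.63-fold lower in A673 (-0.70 ± 0.11, limma adjusted p = 0.0018). In both lines both knock-down arrays lay below their control. With siDKK2 the difference was -0.24 (95% interval -0.56 to 0.076) and with siITM2A -0.18 (-0.50 to 0.14). Neither passed, with adjusted p = 0.673 and 0.866.

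PRKCB, a calcium- and lipid-activated kinase, had 8.08 with siDKK2, 8.16 with siITM2A and 7.69 with control siRNA in A673, against 8.26, 8.17 and 8.44 in SK-N-MC. The A673 control was the lowest of the 6 arrays and the SK-N-MC control the highest, so both knock-downs lay above control in A673, by 0.39 and 0.47, and below it in SK-N-MC, with differences of -0.19 and -0.27. The fits over both lines were accordingly close to 0, at 0.10 with each siRNA. The lines did not overlap, but the gap between the nearest arrays was 0.012. The line difference of -0.31 did not pass (95% interval -0.66 to 0.031, adjusted p = 0.174).

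STEAP1, a membrane protein of the metalloreductase family and a known surface marker of Ewing sarcoma, had 5.65 with siDKK2, 5.88 with siITM2A and 6.63 with control siRNA in A673. In SK-N-MC it had 7.19, 7.29 and 7.41. The lines did not overlap, and STEAP1 was 2.37-fold lower in A673 (-1.24 ± 0.15, limma adjusted p = 0.000407). It also had the largest siRNA difference of the members. With siDKK2 it was -0.98 from control in A673, a size that 0.863% of all genes reached, and -0.23 in SK-N-MC, and the fit gave -0.60 ± 0.19 (95% interval -1.03 to -0.17). With siITM2A the A673 difference was -0.75 and that in SK-N-MC -0.12, with a fit of -0.44 ± 0.19 (-0.87 to -0.0069). Neither passed over all genes (limma unadjusted p = 0.012 and 0.0472, adjusted p = 0.445 and 0.721). Without the A673 control array the siDKK2 difference was -0.26, and leaving out the control array of SK-N-MC gave -0.95 (adjusted p = 0.104). The siITM2A difference was -0.092 and -0.78 with the same arrays left out.

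NPY1R, the receptor through which neuropeptide Y acts on these tumours together with NPY5R, was 8.29 with siDKK2, 8.50 with siITM2A and 8.24 with control siRNA in A673, against 7.38, 7.35 and 7.27 in SK-N-MC. Every A673 array lay above every SK-N-MC array by at least 0.86. The line difference was 1.01 ± 0.11 (2.01-fold, limma adjusted p = 0.000192). Its siRNA differences were small in both lines, 0.076 with siDKK2 (95% interval -0.23 to 0.38) and 0.17 with siITM2A (-0.14 to 0.47), although all 4 knock-down arrays lay above their controls.

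CAV1, the main structural protein of caveolae, had 11.04 with siDKK2, 10.95 with siITM2A and 10.34 with control siRNA in A673, against 8.37, 8.15 and 8.11 in SK-N-MC. Its line difference was the largest among the members, 2.57 ± 0.13 (5.93-fold higher in A673, limma adjusted p = 3.44e-06). All 4 knock-down arrays lay above their control. Its siDKK2 arrays were 0.70 above control in A673, against 0.26 in SK-N-MC, with a fit of 0.48 ± 0.16 (95% interval 0.11 to 0.85, adjusted p = 0.478). For siITM2A the values were 0.61 and 0.041, with a fit of 0.33 (-0.047 to 0.70, adjusted p = 0.77). Without the A673 control array the siDKK2 fit was 0.23, and leaving out the control array of SK-N-MC gave 0.73. For siITM2A these values were 0.074 and 0.58.

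LIPI, a membrane-associated lipase that makes lysophosphatidic acid and is otherwise largely limited to testis, had 7.55 with siDKK2, 7.74 with siITM2A and 7.82 with control siRNA in A673, against 6.78, 6.82 and 7.01 in SK-N-MC. It was 1.78-fold higher in A673, without overlap (0.83 ± 0.10, limma adjusted p = 0.000441). The control array was the highest in each line. LIPI differed from control by -0.25 with siDKK2 (95% interval -0.54 to 0.044) and by -0.14 with siITM2A (-0.43 to 0.16), and neither difference passed (adjusted p = 0.629 and 0.898).

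Over the 10 members, the arrays of A673 and SK-N-MC did not overlap for 8, 4 higher and 4 lower in A673, against 38.9% of all genes in either direction (18.1% higher and 20.8% lower). The smallest p that an exact permutation test of 3 against 3 arrays can give is 0.1, so this is a description. For 6 members, those called by limma, the line difference was larger than the range over the siRNAs in either line, against 30.3% of all genes. The exceptions were PRKCB, GLI1, BCL11B and SOX2. The plot of line difference against siRNA range shows CAV1 and NPY1R furthest above the diagonal. STEAP1 had both a large line difference and the widest siRNA range, 0.98 in A673.

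**Figure D2:**
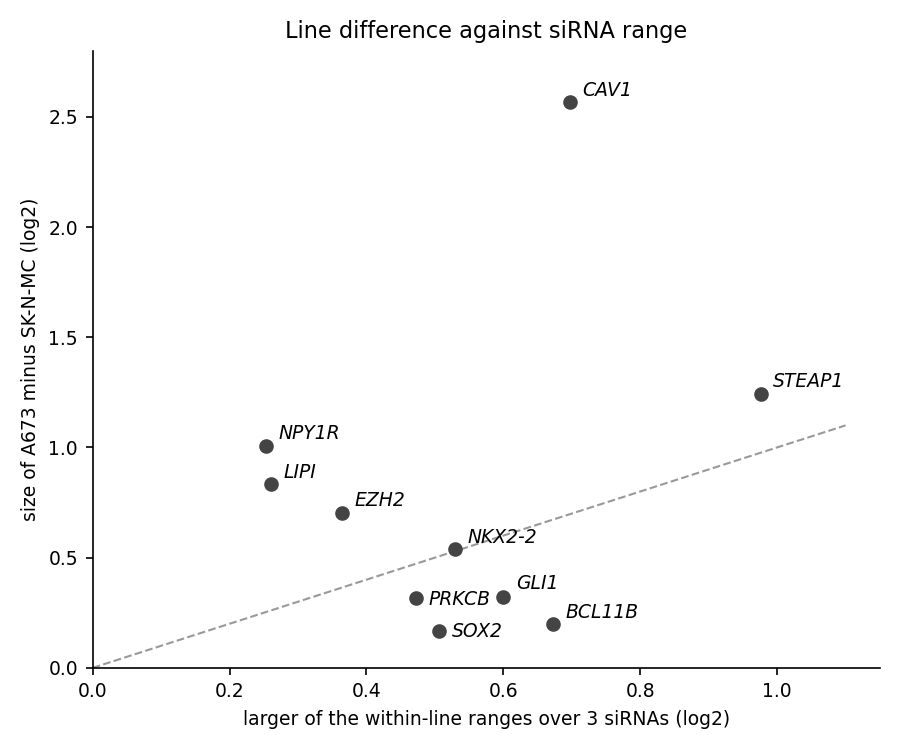
Size of the A673 minus SK-N-MC difference of line means (vertical, log2) against the larger of the within-line ranges over the 3 siRNAs (horizontal, log2), 1 point per marker gene; the dashed line marks equal sizes. The 6 genes above it are CAV1, STEAP1, NPY1R, LIPI, EZH2 and NKX2-2.

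The knock-downs left the members with a mixed set of values relative to control. NKX2-2, NPY1R and CAV1 lay above control on all 4 knock-down arrays (9.22% of all genes), STEAP1, EZH2 and LIPI lay below on all 4 (15.4%), and PRKCB and BCL11B lay on opposite sides in the lines (20.1%). For BCL11B, siITM2A in A673 (0.022) and siDKK2 in SK-N-MC (-0.044) lay close to control. Both knock-downs share the control arrays, so 2 arrays on the same side within a line are not independent. The median member difference was 0.13 with siDKK2 and -0.12 with siITM2A, beside -0.025 and -0.026 over all genes. Of the 20 intervals of the members against control, 19 lay within 1 log2 unit of 0 and the outermost bounds were -1.03 and 0.85. A mean difference over both lines of more than 2-fold therefore lay outside the interval of each member except for STEAP1 with siDKK2, and 4 of the 20 intervals left out 0. Each interval holds for a single gene, without adjustment for their number. Because they average the lines, which could differ (STEAP1 with siDKK2 -0.98 in A673 and -0.23 in SK-N-MC), they do not bound a response within a line. Nor do they bound a response to fuller loss of DKK2, which stood at 53.0% of control in A673. Over all genes, 8.68% with siDKK2 and 6.91% with siITM2A had an unadjusted limma p under 0.05. The median absolute difference over all genes was 0.12 with siDKK2 and 0.11 with siITM2A, beside 0.25 and 0.17 for the members. Typical differences of the members from control were thus not smaller than those over all genes. Interval widths over all genes are not given here, so the intervals do not show the members to be steadier than other genes. For the mean of both knock-downs the interval left out 0 for NKX2-2 (0.32, 0.035 to 0.61), STEAP1 (-0.52, -0.89 to -0.15) and CAV1 (0.40, 0.080 to 0.72), with limma adjusted p = 0.606, 0.55 and 0.573. With 1 array left out these values ran from 0.14 to 0.51 for NKX2-2, from -0.87 to -0.17 for STEAP1 and from 0.15 to 0.65 for CAV1, the end nearest to 0 in each case without the A673 control array. Without a line's control array this fit gives the other line's own difference, so these ends restate the values within each line. A673 was the more variable line for these genes: the median range over its 3 arrays was 0.49 for the members and 0.26 for all genes, against 0.25 and 0.25 in SK-N-MC. The range was larger in A673 for 8 of 10 members, and for 53.0% of all genes.

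**Figure D3:**
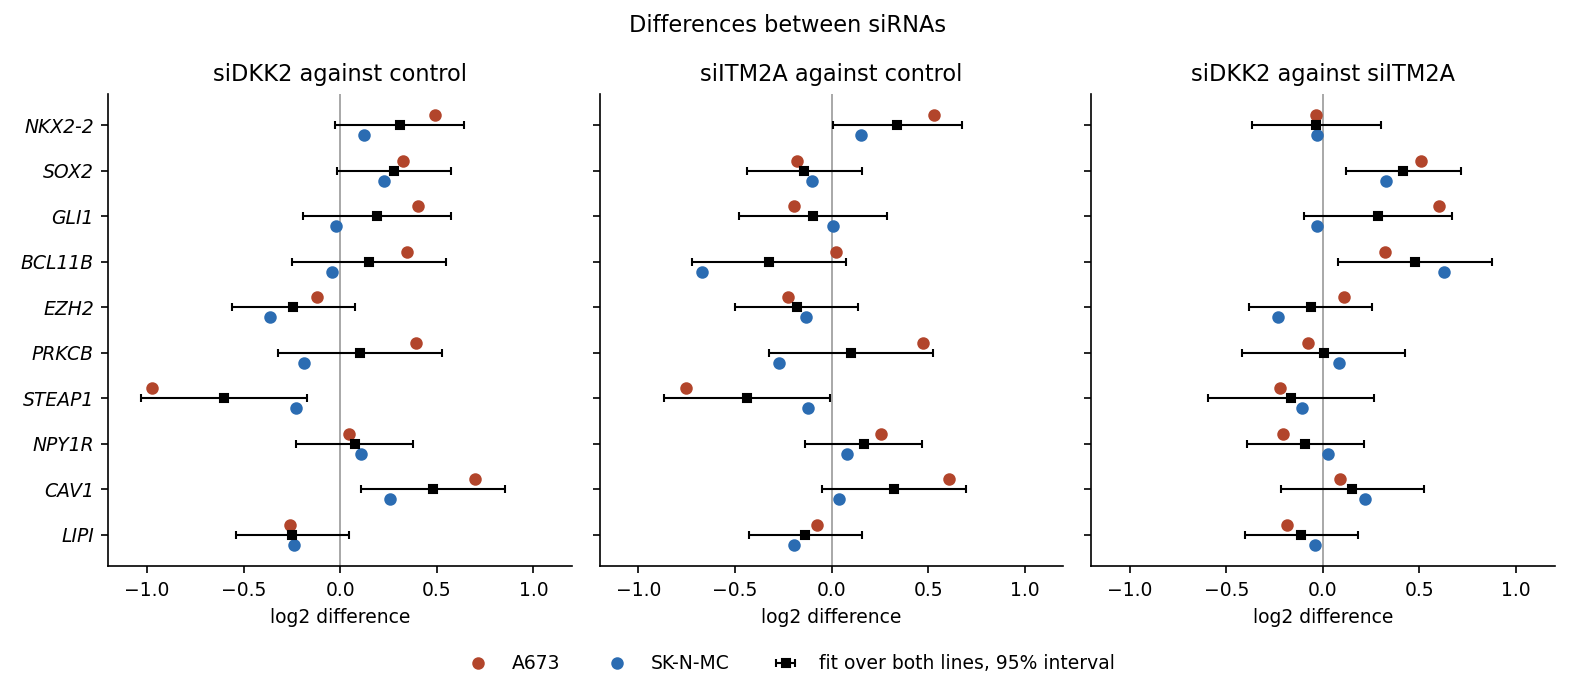
Log2 difference between siRNAs (horizontal) for each marker gene in 3 comparisons; squares with bars are the fit over both lines with its 95% interval, red circles A673 and blue circles SK-N-MC. The intervals of STEAP1 and CAV1 leave out 0 for siDKK2 against control, those of STEAP1 and NKX2-2 for siITM2A against control and those of SOX2 and BCL11B for siDKK2 against siITM2A, with no member past the adjusted threshold.

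For the genes that form the fusion, 0 of 2 passed in any comparison. FLI1 stood at 5.36 with siDKK2, 5.62 with siITM2A and 5.44 with control siRNA in A673, and at 5.11, 5.25 and 5.24 in SK-N-MC. Its siDKK2 difference was -0.11 ± 0.13 and its line difference 0.27 ± 0.10 (adjusted p = 0.864 and 0.0907). EWSR1 had 7.95 with siDKK2, 7.95 with siITM2A and 8.27 with control siRNA in A673, against 8.25, 8.20 and 8.28 in SK-N-MC, so that its A673 knock-down arrays were the lowest. It differed from control by -0.17 ± 0.14 with siDKK2 and -0.20 ± 0.14 with siITM2A, and between the lines by -0.19 ± 0.11 (adjusted p = 0.766, 0.843 and 0.279). These probe sets do not tell the fusion transcript from the normal alleles. Of the other ETS factors, ETV1 (3.59), ETS1 (3.59) and ETV4 (2.08) were higher in A673, the 3 of 9 genes of the list called, against 28.5% of all genes. In SK-N-MC these 3 probe sets lay at 2.28 to 2.76, below the array medians as GLI1 was, so that the sizes of the differences are uncertain. The same holds for 16 of the genes called between the lines in the lists of other genes, which lay below the array median on all 3 arrays of the dimmer line: beside ETV1, ETS1 and ETV4 they are CCK, IGF1, LOXHD1, SNAI2, TGFBR2, GLI3, NPY, NPY5R, TLE2, TLE4, PROM1, SALL4 and LIPH.

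A further list of 26 fusion-activated targets, of which 24 were analysed, had 0 genes past the threshold with either siRNA. Their median difference was 0.080 with siDKK2 and 0.14 with siITM2A. Between the lines 7 were higher and 10 lower in A673, while 13.8% of all genes were called higher and 14.7% lower. Those higher were GSTM4, a glutathione transferase (2.63), ADGRG2, an adhesion receptor (2.07), the growth factor PDGFC (1.60), CCND1, cyclin D1 (1.23), IL1RAP (0.96), the surface antigen CD99 (0.84) and RBM11 (0.69). Those lower were LOXHD1 (-2.48), the receptor kinase KIT (-1.95), the phosphatase inhibitor PPP1R1A (-1.92), the growth factor IGF1 (-1.62), the tau gene MAPT (-1.58), the peptide hormone CCK (-1.58), SOX6 (-0.92), E2F3 (-0.65), FEZF1 (-0.58) and PAX7 (-0.54). Of 18 fusion-repressed genes, 14 had lower and 4 higher fitted values with siDKK2, with a median of -0.24 and 0 past the threshold, while 10318 of all 18417 genes were lower. CCN1, a matricellular protein, differed by -0.75 ± 0.18 (adjusted p = 0.316). With siITM2A the median was 0.0035. Between the lines 11 repressed genes were higher in A673 and 2 lower, with a median of 1.13: TGFBR2, a receptor of TGF-beta (2.82), the stress gene IER3 (2.39), ANXA1 (2.06), TNFRSF12A (1.80), the matrix protein TNC (1.77), the cell cycle inhibitor CDKN1A (1.75), CCN1 (1.66), PHLDA1 (1.39), CCN2 (1.32), ZYX (0.94) and TPM1 (0.88) were higher, and SNAI2 (-1.05) and FOXO1 (-0.56) lower.

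**Figure D4:**
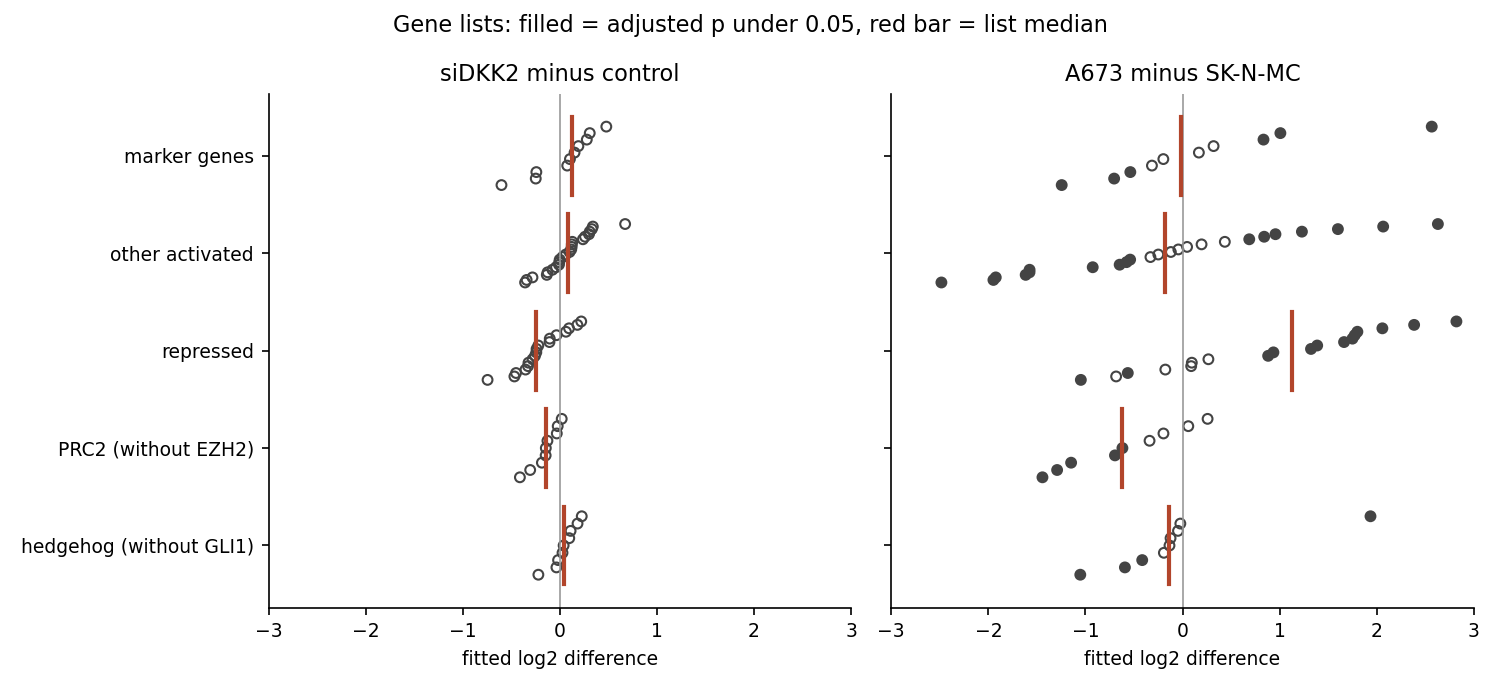
Fitted log2 difference (horizontal) of each gene in 5 lists, for siDKK2 minus control (left) and A673 minus SK-N-MC (right); filled circles have an adjusted p under 0.05 and red bars are list medians. No circle is filled on the left, while on the right 6 marker genes are, with 11 repressed genes higher in A673 and 2 lower.

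The partners of single members were followed in lists of their pathways. Beside their counts, 28.5% of all genes were called between the lines, 13.8% higher and 14.7% lower in A673. Of 9 PRC2 subunits and partners other than EZH2, 5 were lower in A673 and 0 higher: SUZ12, a core subunit, by -1.44, JARID2, which targets the complex, by -1.29, EZH1, the paralogous enzyme, by -1.15, PHF19 by -0.70 and RBBP7 by -0.62. EZH2 was lower in A673 too. With siDKK2 8 of the 9 had values below control (median -0.15), as had 10318 of all 18417 genes, and 0 passed. In the hedgehog pathway the transcription factor GLI3 was higher in A673 (1.94), and the receptor PTCH1 (-1.05), the inhibitor SUFU (-0.59) and the transducer SMO (-0.42) were lower, 4 of 9 genes called. GLI1 itself did not pass.

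In the neuropeptide Y system the receptor NPY5R (3.91) and the ligand NPY (0.81) were higher in A673, as was NPY1R, and both lay below the array median in SK-N-MC (NPY5R at 2.61 to 3.02). They were 2 of 5 genes of that list besides NPY1R, against 28.5% of all genes called. With siDKK2 NPY5R differed from control by -0.58 ± 0.18 (adjusted p = 0.434), whereas NPY1R differed by 0.076. Of the 5 analysed caveolar genes other than CAV1, 0 were called between the lines, with a largest difference of 0.35 in size. The STEAP family members had siDKK2 differences of -0.54 for STEAP2, -0.53 for STEAP3 and -0.14 for STEAP4, beside -0.60 for STEAP1, with 0 of 3 past the threshold. STEAP3, a ferrireductase, was higher in A673 (1.33), opposite to STEAP1.

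Among the kinases related to PRKCB, PRKCZ (-1.75), PRKCD (-1.02) and PRKCA (-0.60) were lower in A673, 3 of 7. For this and the following lists, the share of all genes called between the lines was 28.5%. Of the 7 corepressors through which NKX2-2 works, TLE4 was called higher in A673 (2.16) and TLE2 (-1.04) and HDAC2 (-0.48) lower. In the SOX2 list of progenitor genes SALL4 (0.84), PROM1 (0.61) and SOX11 (0.47) were higher and LIN28B (-0.85) lower, of 7 measured. Of 6 genes around BCL11B, 1, the NuRD remodeller CHD4 (-0.63), was lower. The lipase LIPH, which like LIPI makes lysophosphatidic acid, was higher in A673 (1.82), and the receptor LPAR6 lower (-0.44). In each of these lists 0 genes passed with siDKK2 or siITM2A against control.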

How the data were processed

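Gene expression was measured on 6 arrays of A673 and SK-N-MC cells. The deposited values are taken as log2 values per probe set; per the submitters' processing notes the tools involved were RMA and Affymetrix Expression Console, and the log2 scale was read from their range of 1.02 to 13.35, since the labels do not state it. The software version and the genome build were not given in the sources used here. Symbols came from the platform annotation: 19460 probe sets had 1 symbol, 1754 several and 12083 were not listed. Where a gene had several probe sets the one with the highest mean was kept, leaving 18417 genes. Tests used R 4.3.3 and limma 3.58.1 (lmFit, eBayes) with terms for siRNA and cell line, fitted to all 6 arrays together. This left 2 residual degrees of freedom, moderated to 8.28. Per the labels, arrays of different siRNAs are paired through their cell line, which entered as a block. The siITM2A numbers of the titles, 7 in A673 and 1 in SK-N-MC, entered the fit as the same siRNA. Benjamini-Hochberg adjustment ran over all genes in each of 5 comparisons, with a threshold of 0.05. Each line had a single array per siRNA, so neither a response within a line nor its difference from the other line's could be tested, and the number of arrays limits the precision. All 10 members were named with every value. Of the other lists, the genes past the threshold were named, some genes with large differences were given as values, and FLI1 and EWSR1 as partners of the fusion. Members, lists and the interferon-induced genes were chosen with earlier results of these data known, and 7 listed genes were not analysed here. The fit was run on simulated data with planted siDKK2 differences, but how many of these it recovered is not given here. Alternatives were a fit without the line block, an intensity trend, robust moderation, brighter genes only, all probe sets, quantile normalization, median centring and each array left out.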

Additional observations from a re-analysis of the deposited data

Results flagged for a closer look

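For 2 genes both knock-down arrays of one line lay above their control and both of the other line below it. PRKCB averaged 0.43 above control in A673 and -0.23 in SK-N-MC, a gap of 0.66 on the log2 scale. BCL11B averaged 0.18 in A673 and -0.36 in SK-N-MC, a gap of 0.54. Its single values were 0.35 with siDKK2 and 0.022 with siITM2A in A673, and -0.044 and -0.67 in SK-N-MC. The siITM2A array of A673 and the siDKK2 array of SK-N-MC thus lay close to their controls. With 1 array per line and siRNA, and control arrays shared by both knock-downs, the difference between the lines was not tested, and 20.1% of all genes show the same arrangement.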

How the results depend on the processing

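Of 655 member values under the alternatives, 629 kept their direction and their side of the threshold, 0 newly passed and 24, all without a call, changed sign. Many of these values could not change direction. The fit without the line block, intensity trend, robust moderation, brighter genes only and all probe sets leave a member's difference as it was. Leaving out an array of the siRNA outside a comparison does so too. Where 0 genes passed over all genes, no member could pass. Of 526 siRNA values 0 passed under any alternative. The 2 values that lost the threshold were the line difference of NKX2-2 without the control array of either line (-0.41). The counts over all genes were less stable. Without the line as a replicate block 0 genes passed in each siRNA comparison, and likewise with all probe sets as separate rows. With the intensity trend 7 passed for siDKK2 against control, 16 for siDKK2 against siITM2A and 3 for either knock-down against control. With genes above the median level only, 6 passed between the knock-downs and 3 for either against control, which 2 did under robust moderation and 2 with median-centred arrays. The 4 knock-down arrays alone gave 18 between siDKK2 and siITM2A. Leaving out 1 array gave 0 to 60 genes for siDKK2 against control, 0 to 4 for siITM2A against control, 1 to 50 between the knock-downs and 0 to 37 for either against control; in the first of these, 60 passed with the siDKK2 array of SK-N-MC left out and 45 with that line's control array left out. The causes were not tested. Sign changes with 1 array left out ran, for siDKK2 against control, over -0.23 to 0.44 for PRKCB, -0.12 to 0.42 for BCL11B and -0.073 to 0.45 for GLI1. For siITM2A against control they ran over -0.23 to 0.43 for PRKCB and -0.30 to 0.11 for GLI1. Between siDKK2 and siITM2A they ran over -0.38 to 0.052 for STEAP1, -0.22 to 0.23 for PRKCB, -0.13 to 0.063 for NKX2-2, -0.21 to 0.084 for EZH2, -0.19 to 0.0098 for NPY1R and -0.022 to 0.33 for CAV1. For either knock-down against control they ran over -0.23 to 0.43 for PRKCB, -0.084 to 0.18 for GLI1 and -0.36 to 0.18 for BCL11B. In that comparison, leaving out a line's control array gives the other line's own difference, as at both ends for PRKCB and BCL11B. With quantile normalization PRKCB between the knock-downs was -0.025. GLI1 lay below the median level and has no value among the brighter genes. The number of arrays and the missing measure of signal over background limit all member values.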
